A study of Rattus norvegicus with 6 samples.

Results

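Among the 22864 genes of the deposited count table for rat dorsal root ganglion, 9 encode pore-forming subunits of potassium channels that hold sensory neurons near rest or slow their firing. They were taken by gene symbol: Kcnq3 and Kcnq5 of the KCNQ family, Kcnk1, Kcnk2, Kcnk3 and Kcnk18 of the K2P family, the sodium-activated channels Kcnt1 and Kcnt2, and the calcium-activated channel Kcnma1. All 9 were found, each as 1 row. The samples were ipsilateral L4 to L6 ganglia of wild-type rats, in 3 groups of 2 libraries. Sham+Veh rats were anaesthetised without a ring and received intrathecal vehicle. CPIP+Veh rats had an O-ring tied near the ankle for 3 h, the chronic post-ischaemia pain model, and received vehicle. CPIP+ETA rats had the same ring and received intrathecal etanercept, a soluble receptor that binds TNF. Injections were given daily starting 2 days after the ring, and tissue was taken at 7 days. The ring protocol names male rats; age and strain are not stated in the labels. Nothing in the labels ties each library to its own animal. The p-values therefore reflect the spread between these libraries alone, which may be technical.

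KCNQ channels open slowly at voltages just below the firing threshold and carry the M-current, which limits repetitive firing; Kcnq3 and Kcnq5 both contribute subunits to such channels in neurons. K2P channels pass background potassium current and set the resting potential. Kcnt1 and Kcnt2 open when sodium enters the cell, and Kcnma1 forms the large-conductance BK channel, which opens with calcium and depolarisation and ends the action potential. Blocking the M-current makes sensory neurons easier to excite.

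Library totals ran from 18285251 to 19981250 rounded counts, and between 17773 and 17921 genes were detected per library. Levels below are CPM, the usual depth-scaled count, after TMM scaling, a correction for library composition. All 11 general sensory neuron genes were detected in every library and summed to between 11801 and 12980 CPM. The 7 markers of spinal cord cells summed to between 15.05 and 25.1 CPM. No transcript lengths were used, so a level is compared between libraries and not with that of another gene. In bulk tissue, fewer cells of a type and less RNA per cell cannot be told apart.

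The channel genes differed little between the groups, and none passed the test in any comparison. All 9 passed the filter on low counts. Their counts ran from 88 for Kcnk3 to 2181 for Kcnt1 per library. In the edgeR fit of all 15531 genes tested, adjusted p-values of the 9 genes lay between 0.805 and 0.991 over the 3 comparisons, and 0 of 27 tests had an unadjusted p under 0.05. Of all genes, edgeR called 0.0193% in CPIP+Veh against Sham+Veh, 0% in CPIP+ETA against CPIP+Veh and 0.0193% in CPIP+ETA against Sham+Veh, and 4.94%, 5.15% and 6.37% had an unadjusted p under 0.05. Groups of 2 libraries are often apart: they did not overlap for 37.1%, 32.6% and 35.7% of all genes in these comparisons. Absolute log2 fold changes were under 0.2 in 22 of the 27 and reached at most 0.36. Their medians in the 3 comparisons were 0.10, 0.065 and 0.099 for the 9 genes. All genes tested had similar medians, at 0.086, 0.087 and 0.089. The 95% intervals, each for 1 test, ran at their widest from 0.541-fold to 1.69-fold, both for Kcnk2.

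**Figure D1:**
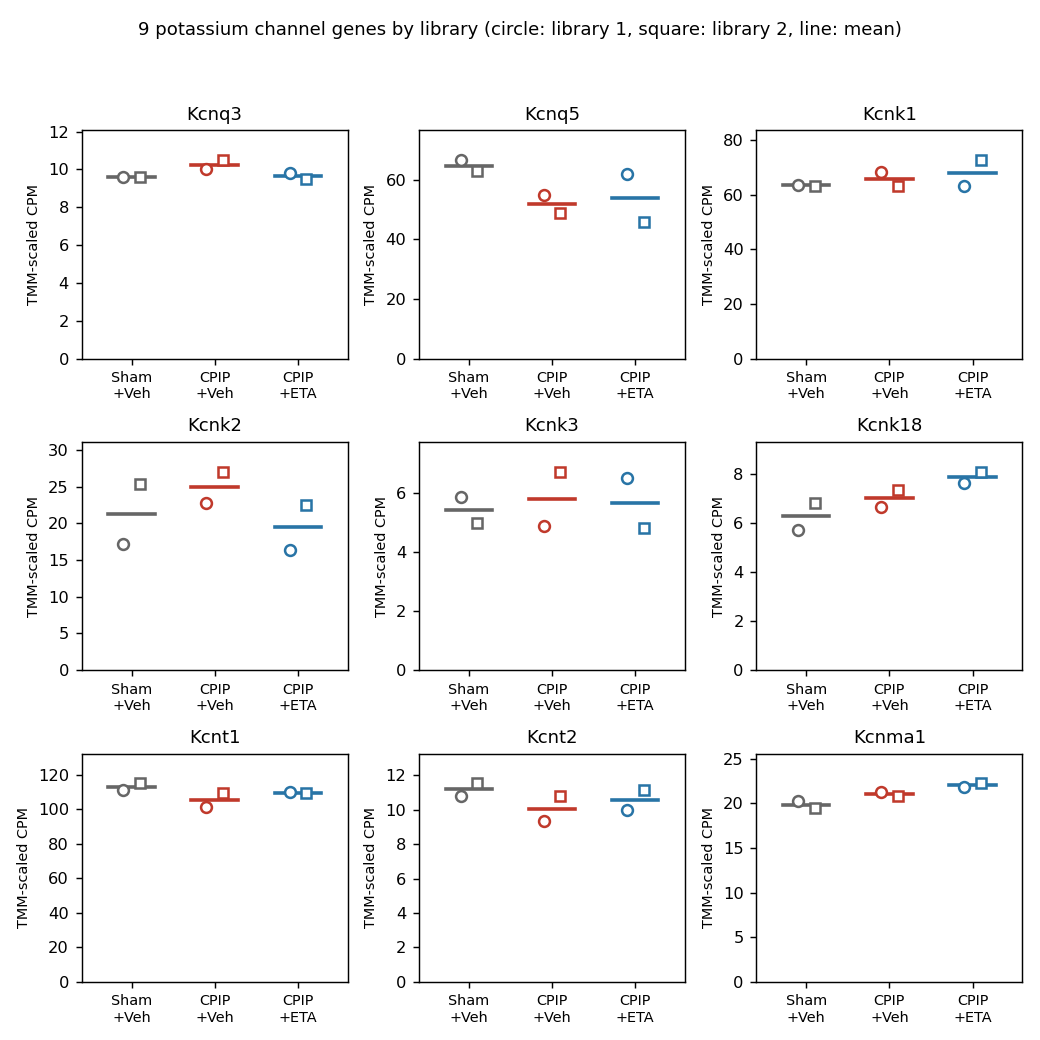
Level of each of the 9 channel genes (TMM-scaled CPM, axis from 0) in the 2 libraries of each group, with the group mean as a line. The Kcnq5 points of the sham libraries, 66.5 and 62.7, sit above the other 4, the Kcnma1 points step up from group to group within 19.5 to 22.3, and the Kcnk2 points spread widely inside each group.

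Kcnq5 had the lowest p of the 9. It stood at 66.5 and 62.7 CPM in Sham+Veh, 54.8 and 48.7 in CPIP+Veh, then 61.8 and 45.8 in CPIP+ETA. All 4 libraries of ringed rats lay below both sham libraries, and the groups given vehicle did not overlap. Means were 64.6 ± 2.7 CPM in Sham+Veh, 51.8 ± 4.3 in CPIP+Veh and 53.8 ± 11.3 in CPIP+ETA (SD, n = 2 each). CPIP+Veh against Sham+Veh had a log2 fold change of -0.32 (SE 0.14, 95% interval -0.65 to 0.01), which did not pass (edgeR unadjusted p = 0.0550, adjusted p = 0.938). DESeq2 gave this contrast an unadjusted p of 0.0464 and limma-voom 0.0522, and neither called it. The main fit draws its spread from all 3 groups, so the CPIP+ETA libraries enter this SE too. With edgeR on the 2 vehicle groups alone the SE was 0.078 (unadjusted p = 0.00754, adjusted p = 0.655), again without a call. Its log2 fold change stayed between -0.41 and -0.24 whichever library was left out.

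The etanercept libraries differed from each other in Kcnq5. CPIP+ETA 2 held 0.742 times the level of CPIP+ETA 1, with a 95% counting interval of 0.679 to 0.810. CPIP+ETA against CPIP+Veh had a log2 fold change of 0.06 (SE 0.14) with overlapping groups, and CPIP+ETA against Sham+Veh had -0.26 (SE 0.14, edgeR adjusted p = 0.827) with groups apart. The value against sham was -0.49 without CPIP+ETA 1 and -0.06 without CPIP+ETA 2. The 2 comparisons with CPIP+Veh share that group's libraries, as those with Sham+Veh do.

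Genes of the axon injury response differed between the same libraries. Atf3, a transcription factor switched on in injured sensory neurons, stood at 7.69 and 6.89 CPM in Sham+Veh, 16.2 and 42.0 in CPIP+Veh, then 6.19 and 23.1 in CPIP+ETA. The 3 libraries with the highest Atf3 (both CPIP+Veh libraries and CPIP+ETA 2) were the 3 with the lowest Kcnq5. Among the remaining libraries the order was not inverse: Sham+Veh 1 had both the highest Atf3 (7.69) and the highest Kcnq5 (66.5). Within the etanercept group, CPIP+ETA 1 had the lowest Atf3 of all 6 libraries and a Kcnq5 level next to sham. The 12 injury genes listed, of which 11 were tested, summed to 382 to 431 CPM in Sham+Veh, 478 to 661 in CPIP+Veh and 391 to 465 in CPIP+ETA. Most of that sum came from Gap43 and Jun, with Sham+Veh means of 251 and 111 CPM. In CPIP+Veh against Sham+Veh all 11 lay above 0, where 49% of all genes did, and 9 had an unadjusted p under 0.05 with edgeR, where 4.94% of all genes did. edgeR called 0 of the 11, as did limma-voom, while DESeq2 called 3 of them and 49 of all 15531 genes. The list was chosen with earlier results of these data known, so its counts are not an independent comparison with all genes. The part of the injury genes in the Kcnq5 values was not tested, and Atf3 was set beside Kcnq5 after the values were seen.

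**Figure D2:**
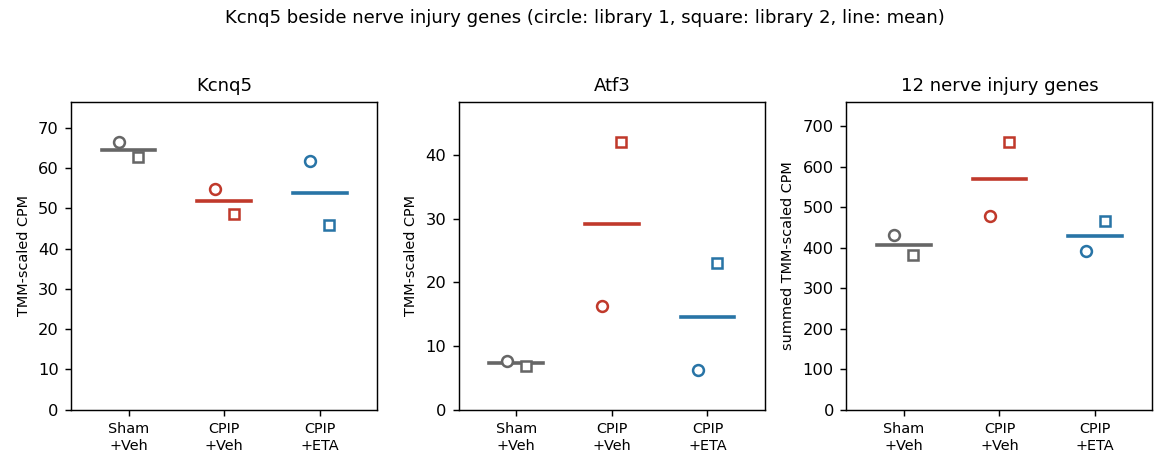
Kcnq5, Atf3 and the sum of 12 nerve injury genes by library (TMM-scaled CPM, axes from 0; circles library 1, squares library 2, lines group means). CPIP+ETA 1 (Kcnq5 61.8, Atf3 6.19) sits near sham in both single genes and CPIP+ETA 2 (45.8 and 23.1) near CPIP+Veh. Gap43 and Jun make up most of the injury gene sum.

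By Pearson correlation of log2 CPM over the 6 libraries, the tested genes most like Kcnq5 were Rfx4, a transcription factor (r = 0.986), the mitochondrial carrier Sfxn3 (0.979) and the splicing-related gene Clasrp (0.979). With only 6 libraries such values are common: 47 of 15530 genes had r above 0.95. The values describe these libraries and have no test.

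Kcnq3 was nearly level. It stood at 9.58 and 9.57 CPM in Sham+Veh, 10.02 and 10.5 in CPIP+Veh, then 9.82 and 9.47 in CPIP+ETA. Both CPIP+Veh libraries lay above the other 4, by a small margin. CPIP+Veh against Sham+Veh had a log2 fold change of 0.10 (SE 0.10, edgeR adjusted p = 0.957), and CPIP+ETA against CPIP+Veh had -0.09 (SE 0.10, adjusted p = 0.948). A mean change beyond 0.904-fold to 1.27-fold lay outside the 95% interval of the first contrast.

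Kcnk18 encodes TRESK, a background channel of sensory neurons that calcineurin activates. It stood at 5.74 and 6.84 CPM in Sham+Veh, 6.68 and 7.36 in CPIP+Veh, then 7.65 and 8.11 in CPIP+ETA. The sham and CPIP+Veh libraries overlapped, and both etanercept libraries lay above the other 4. Means were 6.29 ± 0.78, 7.02 ± 0.48 and 7.88 ± 0.32 CPM (SD, n = 2 each). CPIP+ETA against Sham+Veh had a log2 fold change of 0.33 (SE 0.14, 95% interval -0.02 to 0.67), which did not pass (edgeR unadjusted p = 0.0605, adjusted p = 0.805). The other contrasts had 0.16 (CPIP+Veh against Sham+Veh, SE 0.14) and 0.17 (CPIP+ETA against CPIP+Veh, SE 0.14). Leaving out Sham+Veh 1 gave 0.05 for CPIP+Veh and 0.21 for CPIP+ETA against sham, and leaving out Sham+Veh 2 gave 0.29 and 0.46.

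Kcnk2 encodes TREK-1, a channel opened by stretch, heat and lipids. It stood at 17.2 and 25.3 CPM in Sham+Veh, 22.8 and 27.0 in CPIP+Veh, then 16.4 and 22.5 in CPIP+ETA. The 2 libraries of each group differed by more than counting error: the ratios of library 2 to library 1 were 1.48 (95% counting interval 1.28 to 1.71), 1.18 (1.04 to 1.34) and 1.37 (1.18 to 1.59). The largest ratio between group means was 1.28. Etanercept against vehicle had the largest log2 fold change of the 9 genes, -0.36 (SE 0.22, edgeR adjusted p = 0.938), with groups apart by 22.5 against 22.8 CPM. It was -0.14 without CPIP+ETA 1 and -0.60 without CPIP+ETA 2. CPIP+Veh against Sham+Veh had 0.23 (SE 0.22), and leaving out Sham+Veh 1 gave -0.02, leaving out Sham+Veh 2 gave 0.54.

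Some lists of cell markers differed within groups alongside Kcnk2, and others did not. The library of each group with the higher Kcnk2 also had the higher sum of 5 skeletal muscle markers: 23.7 against 14.6 CPM in Sham+Veh, 60.6 against 13.9 in CPIP+Veh and 39.6 against 9.11 in CPIP+ETA. The same held for 6 fibroblast markers, at 3861 against 3618, 3473 against 2843 and 2925 against 2299 CPM. The 11 general sensory neuron genes went the other way, lower in the library with the higher Kcnk2, at 11801 against 12034, 12649 against 12777 and 12179 against 12980 CPM. So did 7 markers of large sensory neurons, at 20906 against 22086, 20388 against 21739 and 20805 against 23506 CPM. Most of that sum came from the neurofilament genes Nefh and Nefm, with Sham+Veh means of 8389 and 11804 CPM. The other marker lists went with Kcnk2 in some groups and against it in others. The 8 nociceptor markers were lower in the library with the higher Kcnk2 in Sham+Veh, at 3474 against 3620 CPM. They were higher there in CPIP+Veh, at 3581 against 3430 CPM, and in CPIP+ETA, at 3620 against 3473 CPM. The lists named here were set beside Kcnk2 after the values were seen. The part of these tissue differences in the Kcnk2 values was not tested.

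Kcnk1 encodes TWIK-1, a weakly conducting background channel. It stood at 63.6 and 63.1 CPM in Sham+Veh, 68.2 and 63.2 in CPIP+Veh, then 63.2 and 72.6 in CPIP+ETA. In each ringed group 1 library stood at the sham level and the other above it. Log2 fold changes were 0.05, 0.05 and 0.10 (SE 0.080 each), and the intervals over the 3 contrasts ran from 0.905-fold to 1.22-fold.

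Kcnk3 encodes TASK-1, an acid-sensitive background channel that vascular smooth muscle also expresses. It stood at 5.85 and 4.98 CPM in Sham+Veh, 4.86 and 6.71 in CPIP+Veh, then 6.50 and 4.79 in CPIP+ETA. The 3 groups overlapped, and the sham libraries lay within the range of each ringed group. Group means differed by at most 1.07-fold, while libraries within a group differed by up to 1.38-fold, and the intervals ran from 0.669-fold to 1.56-fold.

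Kcnt1 encodes Slack, which carries much of the sodium-activated potassium current of sensory neurons. It stood at 111 and 115 CPM in Sham+Veh, 101 and 109.3 in CPIP+Veh, then 109.8 and 109.2 in CPIP+ETA. Both sham libraries were the highest of the 6. CPIP+Veh against Sham+Veh had a log2 fold change of -0.10 (SE 0.058, edgeR adjusted p = 0.948), and its 95% interval ran from 0.847-fold to 1.03-fold, the narrowest range of the 9 genes on the log2 scale in that contrast.

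Kcnt2 encodes Slick, the close relative of Slack. It stood at 10.8 and 11.5 CPM in Sham+Veh, 9.36 and 10.8 in CPIP+Veh, then 9.97 and 11.2 in CPIP+ETA. The CPIP+Veh and Sham+Veh libraries were apart by a small margin and the others overlapped. CPIP+Veh against Sham+Veh had a log2 fold change of -0.15 (SE 0.12, edgeR adjusted p = 0.955).

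Ano3, a membrane protein known to bind Slack in sensory neurons and raise its activity, stood at 93.5 and 96.0 CPM in Sham+Veh, 94.9 and 66.6 in CPIP+Veh, then 105 and 109 in CPIP+ETA. CPIP+Veh 2 was the lowest, while CPIP+Veh 1 lay between the sham libraries. CPIP+ETA against CPIP+Veh had a log2 fold change of 0.41 (SE 0.15, edgeR unadjusted p = 0.0296, adjusted p = 0.938), which did not pass.

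Kcnma1, the pore of the BK channel, stood at 20.2 and 19.5 CPM in Sham+Veh, 21.3 and 20.8 in CPIP+Veh, then 21.8 and 22.3 in CPIP+ETA. The 3 groups did not overlap, with sham lowest and etanercept highest. Means were 19.9 ± 0.51, 21.1 ± 0.34 and 22.0 ± 0.32 CPM (SD, n = 2 each). CPIP+ETA against Sham+Veh had a log2 fold change of 0.15 (SE 0.080, 95% interval 0.971-fold to 1.26-fold), which did not pass (edgeR adjusted p = 0.830), and the other contrasts had 0.08 (CPIP+Veh against Sham+Veh) and 0.06 (CPIP+ETA against CPIP+Veh). Of all genes tested, 7.41% had 3 groups apart in any order and 1.13% in this order. Kcnma1 was the only one of the 9 with all 3 groups apart.

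Auxiliary BK subunits, which set the calcium sensitivity of the pore, were read beside it. Kcnmb1, the beta subunit typical of smooth muscle, was counted 35 and 21 times in Sham+Veh, 10 and 14 times in CPIP+Veh, then 13 and 27 times in CPIP+ETA. Its log2 fold change in CPIP+Veh against Sham+Veh was -1.32 (SE 0.52, edgeR unadjusted p = 0.0407, adjusted p = 0.938), which did not pass. The 8 pericyte and smooth muscle markers summed to 189 to 203 CPM in Sham+Veh, 141 to 145 in CPIP+Veh and 140 to 169 in CPIP+ETA. Of the 8, 7 lay below 0 in CPIP+Veh against Sham+Veh, where 51% of all genes did. All 7 endothelium and all 6 fibroblast markers lay below 0 there too, while all 5 skeletal muscle markers lay above 0. The skeletal muscle sums were 14.6 and 23.7 CPM in Sham+Veh and 13.9 and 60.6 in CPIP+Veh, so only CPIP+Veh 2 lay above sham. The part of these tissue differences in the Kcnmb1 values was not tested.

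Kcnmb2, a beta subunit that inactivates BK channels, stood at 2.71 and 2.95 CPM in Sham+Veh, 2.28 and 1.76 in CPIP+Veh, then 2.92 and 2.78 in CPIP+ETA. Both CPIP+Veh libraries were the lowest. The log2 fold change was -0.48 (SE 0.24) in CPIP+Veh against Sham+Veh and 0.49 (SE 0.24) in CPIP+ETA against CPIP+Veh, with edgeR adjusted p = 0.938 for each. Kcnmb4, the neuronal beta subunit, stood between 7.60 and 9.91 CPM, and the gamma subunit Lrrc55 between 41.0 and 44.8 CPM over the 6 libraries.

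**Figure D3:**
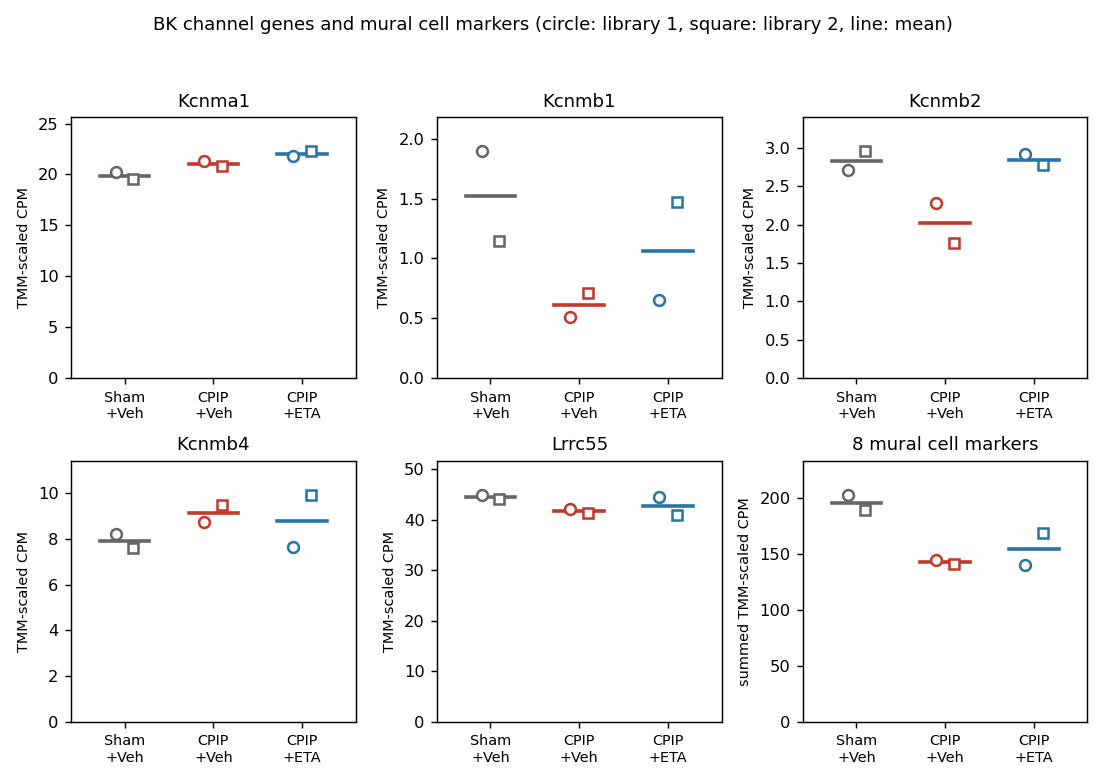
BK channel genes and the sum of 8 pericyte and smooth muscle (mural cell) markers by library (TMM-scaled CPM, axes from 0; circles library 1, squares library 2, lines group means). Kcnma1 steps up within 19.5 to 22.3 CPM, while Kcnmb1 and the mural markers are lower in both CPIP+Veh libraries than in both sham libraries.

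The counts over the 9 genes were set beside those over all genes tested. In CPIP+Veh against Sham+Veh, 6 lay above 0 and 3 below, where 49% and 51% of all genes did, with a median log2 fold change of 0.08 against -0.003 for all genes tested, and a median absolute value of 0.10 against 0.086. edgeR called 0 of the 9, where it called 0.0193% of all genes, and 0 had an unadjusted p under 0.05, where 4.94% of all genes did. DESeq2 called 0 with 1 (Kcnq5) at an unadjusted p under 0.05, and limma-voom called 0 with 0. The groups did not overlap for 5 of the 9 (Kcnq3 and Kcnma1 higher, Kcnq5, Kcnt1 and Kcnt2 lower), against 37.1% of all genes (17.6% higher, 19.5% lower).

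In CPIP+ETA against CPIP+Veh, 6 lay above 0 and 3 below (49.6% and 50.4% of all genes), with a median of 0.06 against -0.002 for all genes. edgeR called 0 of the 9 and 0% of all genes, with 0 of the 9 and 5.15% of all genes at an unadjusted p under 0.05. The groups did not overlap for 4 of the 9 (Kcnk18 and Kcnma1 higher, Kcnq3 and Kcnk2 lower), against 32.6% of all genes (15.7% higher, 16.9% lower). In CPIP+ETA against Sham+Veh, 5 lay above 0 and 4 below (49.3% and 50.7% of all genes), with a median of 0.01 against -0.002. edgeR called 0 of the 9 and 0.0193% of all genes, with 0 of the 9 and 6.37% of all genes at an unadjusted p under 0.05. The groups did not overlap for 4 of the 9 (Kcnk18 and Kcnma1 higher, Kcnq5 and Kcnt1 lower), against 35.7% of all genes (17.2% higher, 18.5% lower). In both comparisons with etanercept DESeq2 and limma-voom called 0 of the 9, with 0 at an unadjusted p under 0.05. The summed level of the 9 genes ran from 300 CPM in CPIP+Veh 1 to 319 CPM in Sham+Veh 2.

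**Figure D4:**
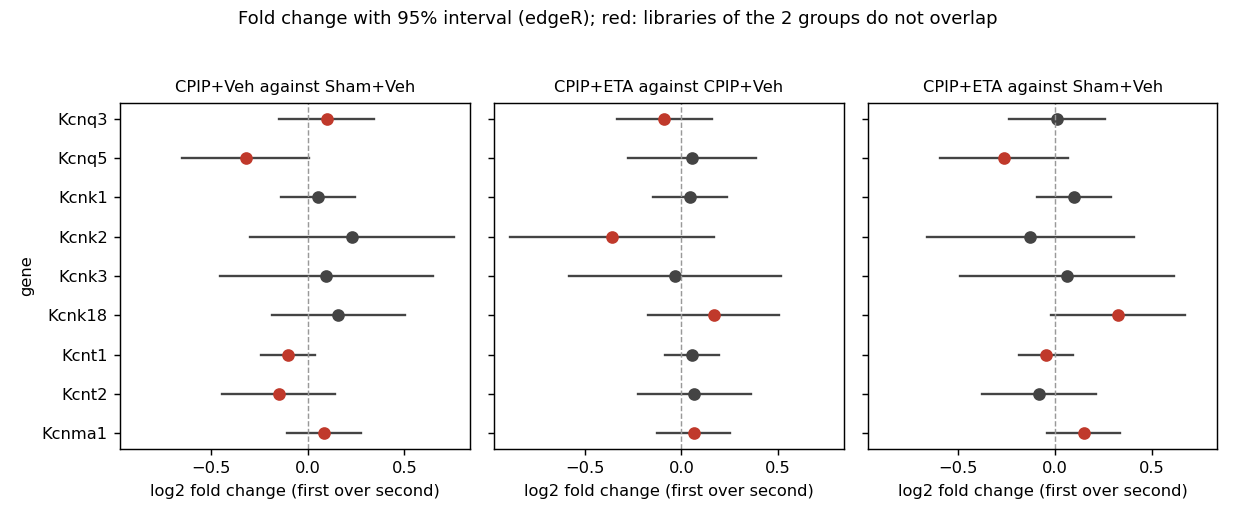
Log2 fold change of each of the 9 genes with its 95% interval in the 3 comparisons (first group over second; edgeR), in red where the libraries of the groups do not overlap. Every interval spans 0; those of Kcnk2 and Kcnk3 are the widest, and Kcnq5 in CPIP+Veh against sham and Kcnk18 in CPIP+ETA against sham come nearest to excluding it.

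Differences between groups were set beside those within groups. For 3 of the 9 genes (Kcnq3, Kcnk18 and Kcnma1) the largest ratio between group means exceeded the largest ratio between the libraries of 1 group. Of the 27 pairs of libraries within groups, 9 differed by more than counting error at the 95% level: all 3 pairs for Kcnk2, 2 each for Kcnq5 and Kcnk3, and 1 each for Kcnk1 and Kcnt1. For the others the counts alone did not separate the libraries of a group. Neither the 3 of 9 nor the 9 of 27 was counted over all genes tested, so neither can be read as particular to these channels.

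The other genes of these families, their auxiliary subunits and their known partners were read from fixed lists. Of 18 further KCNQ, K2P, BK-like and SK or IK (small and intermediate conductance, calcium-activated) channel genes, 15 were tested. Those above and below 0 numbered 3 and 12 in CPIP+Veh against Sham+Veh, 9 and 6 in CPIP+ETA against CPIP+Veh, and 7 and 8 in CPIP+ETA against Sham+Veh. Of all genes, 49%, 49.6% and 49.3% lay above 0 in these comparisons. edgeR, DESeq2 and limma-voom called 0 in each. At an unadjusted p under 0.05 edgeR and limma-voom each had 0, 1 and 2 in the 3 comparisons, and DESeq2 0, 0 and 1; with edgeR 4.94%, 5.15% and 6.37% of all genes did.

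The lowest p-values in CPIP+Veh against Sham+Veh belonged to Kcnn4, the intermediate-conductance channel (log2 fold change -0.27, SE 0.20), the heat- and stretch-sensitive Kcnk4 (-0.12, SE 0.11) and Kcnk6 (-0.17, SE 0.21). With etanercept against vehicle, those with low p-values included Kcnk12 (0.21, SE 0.10) and Kcnk5 (0.61, SE 0.32). Kcnk5 stood at 4.38 and 8.16 CPM in CPIP+ETA and at 4.76 and 3.43 in CPIP+Veh, so CPIP+ETA 2 alone lay above the vehicle libraries. In CPIP+ETA against Sham+Veh they included Kcnk16 (-1.22, SE 0.49, at 0.35 to 1.04 CPM) and Kcnk5 (0.49, SE 0.31). None passed. Kcnk15 had no counts in any library and Kcnu1 at most 2, and both were among the 3 not tested.

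Of the 13 auxiliary subunits found, 7 were tested. Those above and below 0 numbered 3 and 4 in each comparison (49% to 49.6% of all genes lay above 0), and edgeR called 0 in each comparison, as did DESeq2 and limma-voom. Kcnmb1 was the only one at an unadjusted p under 0.05, in CPIP+Veh against Sham+Veh with edgeR and limma-voom. Besides those already given, the lowest p-values belonged to Kcne3 with etanercept against vehicle (-0.15, SE 0.21), and to Kcne2 (-0.62, SE 0.51) and Kcnmb4 (0.15, SE 0.16) in CPIP+ETA against Sham+Veh.

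Of 23 partners and regulators 21 were tested, and 0 were called by any of the 3 tools. Those above and below 0 numbered 12 and 9 in CPIP+Veh against Sham+Veh, 13 and 8 in CPIP+ETA against CPIP+Veh, and 17 and 4 in CPIP+ETA against Sham+Veh, where 49%, 49.6% and 49.3% of all genes lay above 0. At an unadjusted p under 0.05 edgeR and limma-voom had 1 in each (Mark2, Ano3 and Ank3 in turn), where with edgeR 4.94%, 5.15% and 6.37% of all genes did. Mark2, a kinase that acts on TRESK, stood at 54.3 and 57.1 CPM in Sham+Veh, 49.6 and 50.2 in CPIP+Veh, then 54.9 and 53.1 in CPIP+ETA. Both CPIP+Veh libraries were the lowest, and the log2 fold change against sham was -0.16 (SE 0.057, edgeR unadjusted p = 0.0295, adjusted p = 0.938). S100a10, which binds TASK-1 and the sodium channel Scn10a, stood at 565 and 516 CPM in Sham+Veh, 593 and 592 in CPIP+Veh, then 532 and 550 in CPIP+ETA. Its log2 fold changes were 0.13 against sham and -0.13 for etanercept against vehicle (SE 0.057 each, edgeR adjusted p = 0.938 for each), and DESeq2 had both at an unadjusted p under 0.05.

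Ank3, the ankyrin that anchors KCNQ channels at the axon initial segment, stood at 196 and 204 CPM in Sham+Veh, 206 and 203.6 in CPIP+Veh, then 218 and 219 in CPIP+ETA. Both etanercept libraries were the highest, and the log2 fold change against sham was 0.12 (SE 0.048, edgeR unadjusted p = 0.0368, adjusted p = 0.763). Also among the lowest p-values were the muscarinic receptor Chrm3 in CPIP+Veh against Sham+Veh (-0.33, SE 0.20) and Ano3 in CPIP+ETA against Sham+Veh (0.18, SE 0.15). The calcineurin subunits Ppp3ca, Ppp3cb, Ppp3cc and Ppp3r1 and the repressor Rest, which acts on KCNQ genes, had no unadjusted p under 0.05 with edgeR.

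**Figure D5:**
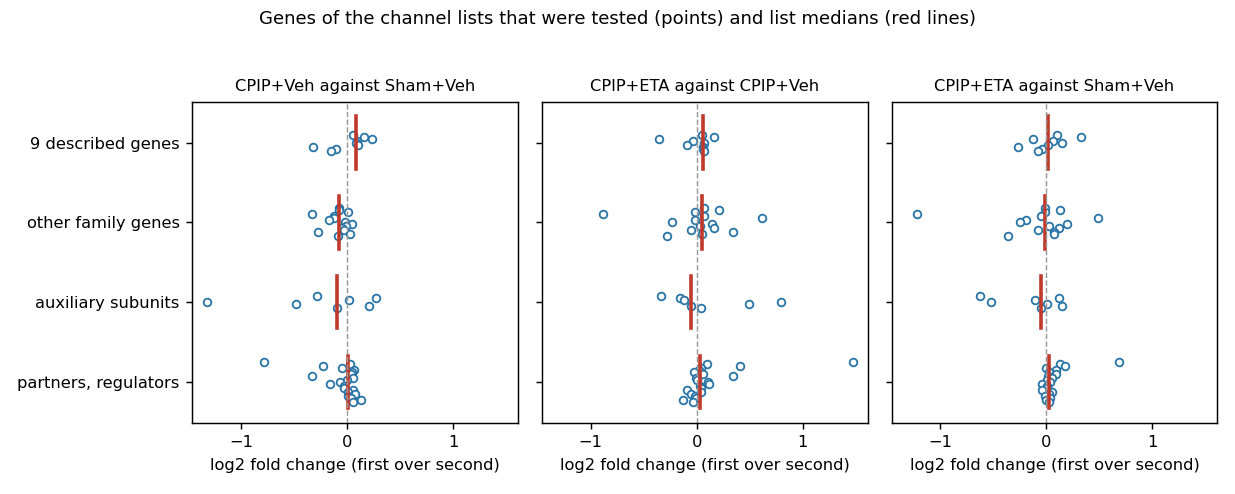
Log2 fold change of each gene tested (points) in the 9 channel genes, 15 other genes of the families, 7 auxiliary subunits and 21 partners and regulators, with list medians (red lines), in the 3 comparisons. Medians lie within 0.1 of 0; the point farthest left among auxiliary subunits in CPIP+Veh against Sham+Veh is Kcnmb1 at -1.32.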

How the data were processed

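The authors deposited 1 table of expected counts (estimated reads for each gene; 32.7% of values were whole) for 6 libraries. Per the labels' protocols, RNA of RIN 8.0 or more was sequenced on the BGISEQ-500; the submitters' processing notes name the genome build Rnor_6.0. For the aligner, counting program, annotation and strand handling, the information was not given in the sources used here. Blank rows (2907 genes) were read as 0 and values rounded to whole counts.

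Columns were matched to samples by title. In R 4.3.3, edgeR 4.0.16 (quasi-likelihood F-test, TMM scaling, filterByExpr by group with minimum count 10 and total 15, 1 fit of all 6 libraries with group as the only term, 3 residual degrees of freedom) tested 15531 genes; calls needed a Benjamini-Hochberg adjusted p below 0.05. The SE was taken as the size of the log2 fold change over the root of its F statistic. Intervals between libraries are exact binomial (95%) and, like every depth-based interval, cover counting error only. The fit was tested on simulated data.

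The 9 genes and the gene lists were chosen with earlier results of these data known. Named are the 9 genes, of each channel list the 3 genes with the lowest p per comparison, and the 3 genes most correlated with the gene of lowest p; others are marked or were set beside a result, and some genes the rule names are not reported here. Alternatives were RLE or library-total scaling, DESeq2 1.42.0, limma-voom (limma 3.58.1), 2 other filters, 2 groups per fit, a replicate block, leaving out each library, and a call threshold of 0.1. All 9 gene identifiers matched their symbols in a GRCr8 gene table, used for names only. Figures used matplotlib 3.10.9.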

Additional observations from a re-analysis of the deposited data

How the results depend on the processing

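No alternative called any of the 9 channel genes, and their smallest adjusted p over all alternatives was 0.505, for Kcnq5. Of 378 alternative log2 fold changes 359 kept their direction. The 19 that changed sign each left out 1 library. In CPIP+Veh against Sham+Veh these were Kcnk2 without Sham+Veh 1 (-0.016), Kcnk3 without Sham+Veh 2 (-0.014) or CPIP+Veh 2 (-0.16), and Kcnk1 without CPIP+Veh 1 (-0.0035). In CPIP+ETA against CPIP+Veh they were Kcnt2 without CPIP+Veh 1 (-0.027) or CPIP+ETA 2 (-0.016), Kcnq5 without CPIP+Veh 2 (-0.025) or CPIP+ETA 1 (-0.17), Kcnk1 without CPIP+Veh 2 (-0.0072) or CPIP+ETA 2 (-0.057), and Kcnk3 without CPIP+Veh 2 (0.22) or CPIP+ETA 2 (0.17). In CPIP+ETA against Sham+Veh they were Kcnk2 without Sham+Veh 2 (0.18) or CPIP+ETA 1 (0.093), Kcnk3 without Sham+Veh 2 (-0.047) or CPIP+ETA 1 (-0.17), Kcnq3 without CPIP+ETA 1 (-0.0086), Kcnt2 without CPIP+ETA 1 (0.0042) and Kcnk1 without CPIP+ETA 2 (-0.00041). Over all such fits, Kcnk1 reached 0.11, 0.15 and 0.20 in the 3 comparisons in that order, Kcnk2 0.54 in the first and -0.37 in the last, Kcnk3 0.31, -0.27 and 0.27, Kcnq5 0.25 in the second, Kcnq3 0.040 in the last, and Kcnt2 0.17 in the second and -0.16 in the last. Kcnk18 ran from 0.045 to 0.29, from 0.10 to 0.24 and from 0.21 to 0.46, and Kcnt1 from -0.16 to -0.047, from 0.0070 to 0.11 and from -0.063 to -0.016. These fits assume that a group's single remaining library varies like the other groups.

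Over the whole table DESeq2 called 49, 21 and 50 genes in the 3 comparisons, where edgeR called 3, 0 and 3. In CPIP+ETA against Sham+Veh limma-voom called 1, and the fit of those 2 groups alone 1. With 1 library left out the counts were 1 to 3 in CPIP+Veh against Sham+Veh (1 without CPIP+Veh 2), 0 to 0 in CPIP+ETA against CPIP+Veh, and 1 to 2 in CPIP+ETA against Sham+Veh (1 without CPIP+Veh 1, CPIP+Veh 2 or CPIP+ETA 1). The cause was not tested.

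With the title number as a replicate block, 3, 0 and 3 genes were called and none of the 9. Deviations of same-numbered libraries correlated at 0.035, -0.11 and 0.050 over 15531 genes. Such values cannot show whether same-numbered libraries were handled together, and the labels do not say. In the edgeR fit with the replicate block, Kcnk2 had -0.37 (unadjusted p = 0.0143) for etanercept against vehicle. Kcnq5 had -0.32 (0.0133) and -0.27 (0.0253) against sham, with Kcnk18 at 0.33 (0.0479) in CPIP+ETA against Sham+Veh. With 2 libraries per group, intervals of the 9 genes ran from 0.541-fold to 1.69-fold at the widest. Both limits apply: 9 of 27 pairs of libraries within groups differed beyond counting error, and for the other pairs the depth did not separate the libraries.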
